A study of Mus musculus with 6 samples.

Results

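The laminin chain genes are those that encode the subunits of the laminins of basement membranes. The 10 examined here, Lama1 to Lama5, Lamb1 to Lamb3, Lamc1 and Lamc3, were taken by symbol from the 31053 genes of the deposited count tables and were described across the cell classes of 2 preparations of mouse brain coverings. One preparation held cells from the cortical surface, with the leptomeninges and superficial vessels (4 libraries), and the other held bone-associated cells, with the dura and the inner face of the skull (2 libraries). All mice were wild-type C57BL6 animals of either sex, 8 to 16 weeks old, with no transgene and no treatment in either group. A bone-associated library pooled 8 mice and a cortical surface library pooled 6 to 10, so a library is a replicate pool and not an animal, and the brains were not perfused. Live nucleated cells, positive for DRAQ5 and negative for propidium iodide, had been sorted before 10x Genomics capture at the 3′ end of transcripts. The labels' extraction text describes papain digestion of another brain tissue, whereas the study's methods give collagenase and dispase; which applied to each library was not resolved.

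Laminins are cross-shaped proteins of the basement membrane, each assembled in the endoplasmic reticulum from one alpha, one beta and one gamma chain. The alpha chain carries the domains that bind integrins and dystroglycan on cells, and the short arms of most chains join laminins into a sheet to which nidogen links type IV collagen. A trimer is named by its chain numbers, so the laminin of the Lama5, Lamb2 and Lamc1 products is written alpha5-beta2-gamma1. In the brain, the pial surface has a laminin sheet beneath the leptomeningeal cells, and vessels have endothelial and parenchymal laminins of different alpha chains; a cell can build only the trimers for which it makes all 3 chains.

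The files held 951 to 5602 barcodes and 8408685 to 56169736 unique molecular identifiers (UMIs) per library, and 8680 cells were kept, 5272 from the cortical surface and 3408 bone-associated. Hemoglobin genes took 17.9% and 11.7% of the kept UMIs in cortical surface libraries 3 and 4 and at most 0.524% in the other 4. Those 2 libraries also gave no cells of the vascular smooth muscle (VSMC) class, so results that rest on them were computed without them as well. Pairs of libraries shared between 0 and 2 barcodes among kept cells. Cells were clustered without any laminin gene, and clusters were named from marker genes, which gave 265 cortical surface and 284 bone-associated mesenchymal-like cells, 467 and 452 endothelial-like cells, 449 and 124 of the pericyte-like class, 260 and 282 of the VSMC-like class and, in the bone-associated libraries alone, 77 Schwann-like cells. Each of these 4 shared classes had UMIs of all its markers in both preparations. Of the bone-associated mesenchymal-like cells, 32 came from library 1 and 252 from library 2. Shares of cells pooled over that class thus rest mostly on library 2. The mesenchymal-like cells of the cortical surface stand for the leptomeningeal cells and those of the bone-associated libraries for dural and periosteal cells, as far as dissection separates them. Levels below are UMIs of a gene per 1000000 UMIs of its class in a library (CPM), as mean ± SD over libraries, n = 4 for the cortical surface (2 for VSMC-like cells) and n = 2 for bone-associated cells. A 3′ UMI counts a molecule and was not divided by transcript length, and differences between genes in 3′ capture were not tested.

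Summed over the 10 genes, laminin transcripts were most abundant in the pericyte-like and mesenchymal-like cells of the cortical surface, at 1192 ± 140 and 1083 ± 96.3 CPM. Bone-associated pericyte-like cells followed at 905 CPM, VSMC-like cells at 815 (bone-associated) and 732 (cortical surface), and Schwann-like cells at 680. The lowest sums among the stromal classes were those of bone-associated mesenchymal-like cells at 519, bone-associated endothelial-like cells at 503 and cortical surface endothelial-like cells at 329 CPM. The dural mesenchymal-like cells held less than the leptomeningeal ones and were the more deeply counted, with a median of 14796.5 UMIs per cell against 7580; the sums were not tested.

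**Figure D1:**
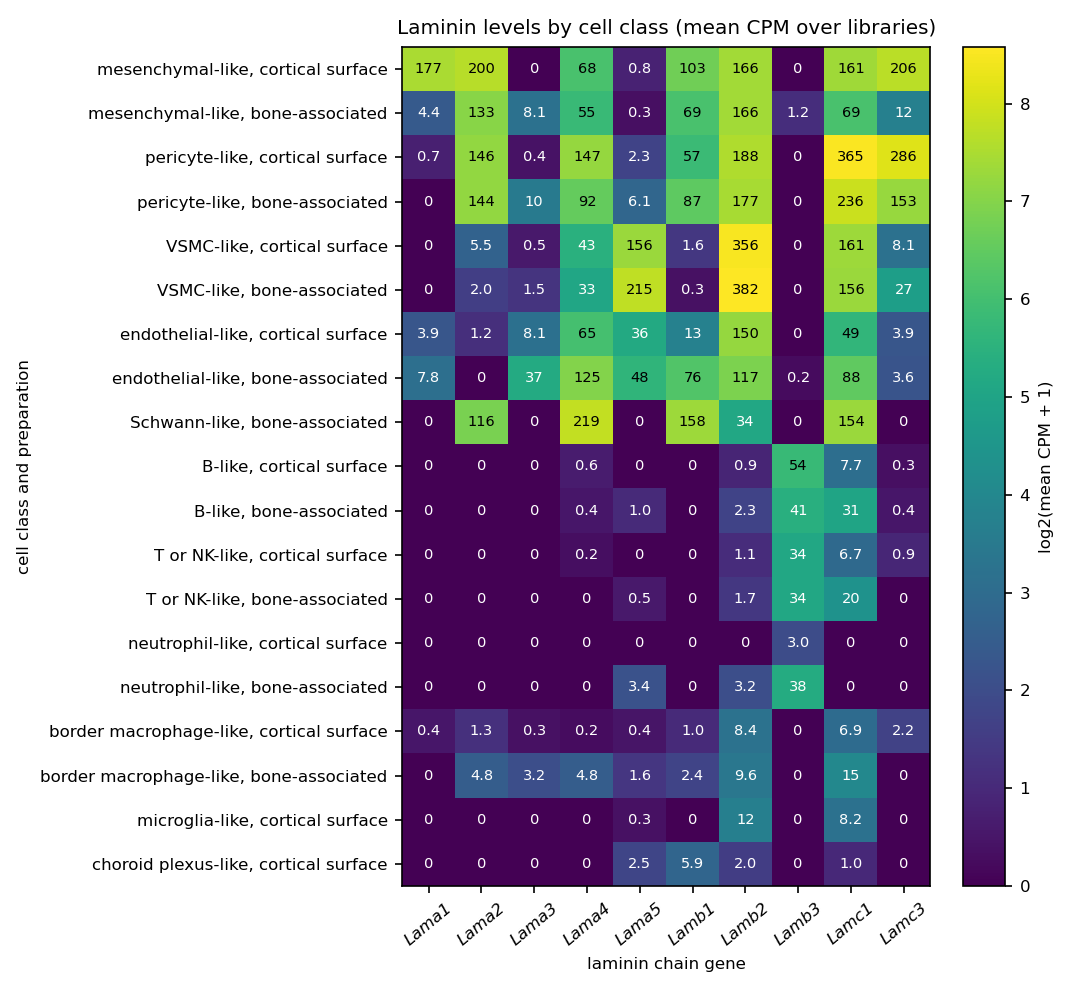
Level of each laminin chain gene (columns) in each cell class and preparation (rows); each cell prints the mean CPM over libraries and is coloured by log2(mean CPM + 1). Lama1 is highest in the cortical surface mesenchymal-like row (177 CPM) and at most 7.84 CPM in the others, Lama5 and Lamb2 peak in the VSMC-like rows, and Lamb3 is seen in the B-like, T or NK-like and bone-associated neutrophil-like rows.

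The regulatory sequence of 4 members is shown, which were high or low in VSMC-like cells. Lama5 and Lamb2 had their highest levels among the named classes there, and Lama2 and Lamb1 were at most 5.52 CPM. The low genes shown were not the lowest: Lama1 and Lamb3 held 0 UMIs in VSMC-like cells, and Lama3 was at most 1.47 CPM. Lama2 was lower still in endothelial-like cells. Each line gives the 250 bases before the RefSeq start on assembly GRCm38.p6, written 5′ to 3′ on the gene's strand, with motif matches on either strand in capitals. The windows are chr2:180225860-180226109 on the minus strand (Lama5), chr9:108479612-108479861 on the plus strand (Lamb2), chr10:27616943-27617192 on the minus strand (Lama2) and chr12:31265043-31265292 on the plus strand (Lamb1). The Lamb2 and Lamb1 windows reach into the annotated gene span, and the Lama2 window lies wholly inside that of its gene.
Lama5: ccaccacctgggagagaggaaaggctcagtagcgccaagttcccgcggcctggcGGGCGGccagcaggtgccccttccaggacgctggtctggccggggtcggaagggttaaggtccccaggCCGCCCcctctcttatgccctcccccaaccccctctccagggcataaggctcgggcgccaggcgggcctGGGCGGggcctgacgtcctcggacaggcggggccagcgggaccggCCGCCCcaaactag
Lamb2: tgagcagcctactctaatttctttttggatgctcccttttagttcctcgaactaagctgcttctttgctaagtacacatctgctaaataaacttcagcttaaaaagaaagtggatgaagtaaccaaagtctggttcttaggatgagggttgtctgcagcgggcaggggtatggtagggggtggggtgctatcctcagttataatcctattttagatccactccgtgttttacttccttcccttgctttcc
Lama2: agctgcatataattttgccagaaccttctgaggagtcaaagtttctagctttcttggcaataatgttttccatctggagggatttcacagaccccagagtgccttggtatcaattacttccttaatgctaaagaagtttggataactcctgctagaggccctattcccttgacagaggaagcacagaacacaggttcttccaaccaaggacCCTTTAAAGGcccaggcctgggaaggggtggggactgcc
Lamb1: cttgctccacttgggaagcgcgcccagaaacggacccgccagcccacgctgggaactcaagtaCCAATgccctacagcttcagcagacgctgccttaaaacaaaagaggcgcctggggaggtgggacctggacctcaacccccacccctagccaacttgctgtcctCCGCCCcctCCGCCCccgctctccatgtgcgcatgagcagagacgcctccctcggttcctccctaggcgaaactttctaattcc
The Lama5 window held 4 GC boxes (GGGCGG) and was 72.4% G or C, against a median of 52.4% over all promoter windows. The Lamb1 window held 2 GC boxes and 1 CCAAT box and was 62% G or C, the Lama2 window held 1 CArG box, the motif bound by serum response factor, at 47.2% G or C, and the Lamb2 window held none of the motifs searched and was 43.6% G or C. Of the 32851 promoter windows, 32.7% held a GC box, 33.8% a CCAAT box, 1.47% a CArG box, 12.4% TATAAA and 6.02% CACGTG. The VSMC-like cells thus had high levels of a gene with a GC-rich window and of one without. The matches are descriptions of letters and not of bound sites. The table of promoters holds 5 of the 10 members, the fifth being Lamb3, with no match in its windows.

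Among the alpha chains, Lama1 (ENSMUSG00000032796, GRCm38 chr17:67697259-67822647, plus strand), the alpha chain of the laminin of early embryonic basement membranes, was high in 1 class. In leptomeningeal mesenchymal-like cells it stood at 214, 118, 160.5 and 217 CPM in libraries 1 to 4 (177 ± 47.2), and in dural mesenchymal-like cells at 7.46 and 1.33 CPM (4.39 ± 4.33). All 4 leptomeningeal libraries lay above both dural ones. At least 1 UMI was found in 61.1% of the leptomeningeal cells (95% exact binomial interval 55 to 67%) and in 1.41% of the dural cells, and after thinning every cell to 1500 UMIs the shares were 21.8% and 0.356%. VSMC-like cells of the cortical surface, with a median of 12750 UMIs, had 0 of 260 cells with a UMI, which allows a share of cells with a UMI of up to 1.15% (3 counts of the total). The level in cortical surface endothelial-like cells was 3.90 ± 3.56 CPM and in bone-associated ones 7.84 ± 6.16, with 3.0% and 3.32% of cells. The 77 Schwann-like cells held 0 UMIs, which by the same floor allows a share of up to 3.9%. This does not place them below the endothelial-like cells. Intervals here cover counting error only.

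Within the leptomeningeal class, Lama1 was found in all 5 clusters, at 190 CPM in the cluster led by Igfbp6 and Slc47a1, 173 in that led by Ranbp3l and Clcn2, 168 in that led by Cemip and Cyp26b1, 140 in that led by Ptgds and Asgr1, and 97.8 in that led by Fgfbp1 and Fibin. These clusters were not named as pial or arachnoid. The markers for that were applied to a separate clustering of the same cells, where at the finest setting 1 of 8 sub-clusters could be named. In the study Slc47a1, a leading gene of the cluster with the highest Lama1, marks potential arachnoid cells, and Lama1 marks potential pial cells. That cluster held 33 cells, with at least 10 in only 1 library. Crabp2 and Aldh1a2, also among the arachnoid markers applied here, were leading genes of the Fgfbp1-led and Ptgds-led clusters, where Lama1 was lowest. In the dural class all 9 Lama1 UMIs lay in 1 of 6 clusters, that led by Apod and Inmt, which held 91 of the 284 cells. Among the clusters without Lama1, one was led by Cyp2f2 and Slc47a1 (42 cells) and one by Gjb6 and Pappa (21 cells). The study gives Gjb6 as a leptomeningeal marker, so the dural class may not be free of leptomeningeal cells. This was not tested.

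Lama2 (ENSMUSG00000019899, chr10:26980036-27619758, minus strand), the alpha chain of muscle and nerve laminins whose loss causes a muscular dystrophy, was shared by the mesenchymal-like, pericyte-like and Schwann-like classes. It stood at 198, 137, 231 and 235 CPM in leptomeningeal cells, at 175 and 91.7 in dural cells, at 122 to 163 and at 172 and 115 in cortical surface and bone-associated pericyte-like cells, and at 135 and 96.5 in Schwann-like cells. These ranges overlapped, and neighbours in that order did not differ beyond their spread. It was 5.52 CPM in cortical surface and 2.00 CPM in bone-associated VSMC-like cells, and bone-associated endothelial-like cells held no UMI at all, at least 133-fold lower than the mesenchymal-like cells of the same libraries (against a floor of 3 counts over the class).

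Lama4 (ENSMUSG00000019846, chr10:38965515-39110188, plus strand), an alpha chain of vascular laminins, was the one alpha chain above 30 CPM in every stromal class. It was highest in Schwann-like cells (269 and 169 CPM, 219 ± 70.9), followed by cortical surface pericyte-like cells (191, 110, 122 and 166 CPM, 147 ± 38) and bone-associated endothelial-like cells (133 and 118 CPM, 125 ± 10.52). The first of these ranges reaches into the second, and the second spans the third. The lowest levels were those of VSMC-like cells, at 43.1 ± 6.67 CPM on the cortical surface and 32.7 ± 10.2 in the bone-associated libraries.

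Lama5 (ENSMUSG00000015647, chr2:180176373-180225859, minus strand), whose GC-rich promoter is printed above, encodes the alpha chain of mature endothelial and epithelial basement membranes. Among the named classes it was highest in VSMC-like cells, at 244 and 185 CPM in the bone-associated and 170 and 142 CPM in cortical surface libraries 1 and 2. Endothelial-like cells followed at 56.4 and 40.3 CPM (bone-associated) and at 24.9, 47.5, 28.4 and 42.7 CPM (cortical surface), and no endothelial value reached any VSMC value. The difference was also seen in the share of cells with a UMI, 82.7% of cortical surface VSMC-like cells (median 12750 UMIs) against 21.2% of endothelial-like cells (median 5138), and 21.3% against 6.08% when cells were thinned to 1500 UMIs. In bone-associated cells, mesenchymal-like cells held 2 Lama5 UMIs against 747 in VSMC-like cells, a ratio of 463 (counting interval 128 to 3827). The endothelial-like cells were not uniform: 59.7 CPM in the cortical surface cluster led by Mfsd2a and 23.8 in that led by Slc38a5. Unnamed clusters led by Gkn3 and Cytl1, which carried endothelial markers beside those of another class, had 70.4 to 75.0 CPM. Several other unnamed clusters were higher. The bone-associated one led by Pappa2 and Lcmt2 had 193 CPM (26 cells). The cortical surface one led by Olfr558 and Thsd4 had 195 CPM (21 cells).

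Lama3 (ENSMUSG00000024421), the alpha chain of the laminin that anchors epithelial cells to the underlying tissue, was the alpha chain with the lowest peak level. It stood at 37.3 and 36.4 CPM in bone-associated endothelial-like cells (36.9 ± 0.664) and at 10.4, 16.5, 0 and 5.34 CPM in cortical surface endothelial-like cells (8.05 ± 7.05). No cortical surface library reached either bone-associated one. A UMI was seen in 22.3% and 4.50% of the cells, with median depths of 7398.5 and 5138 UMIs, and in 4.92% and 0.676% after thinning. Leptomeningeal cells held none. By cluster, Lama3 was highest in the unnamed Gkn3- and Cytl1-led clusters, at 69.5 CPM on the cortical surface (51.4 to 92.1 over libraries) and 61.1 CPM in the bone-associated cells (54.9 to 73.3), and the bone-associated endothelial cluster led by Btnl9 and Gpihbp1 had 59.3 CPM. The Gkn3- and Cytl1-led cells lie outside the endothelial-like class, and the value with them included is given with the test below.

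**Figure D2:**
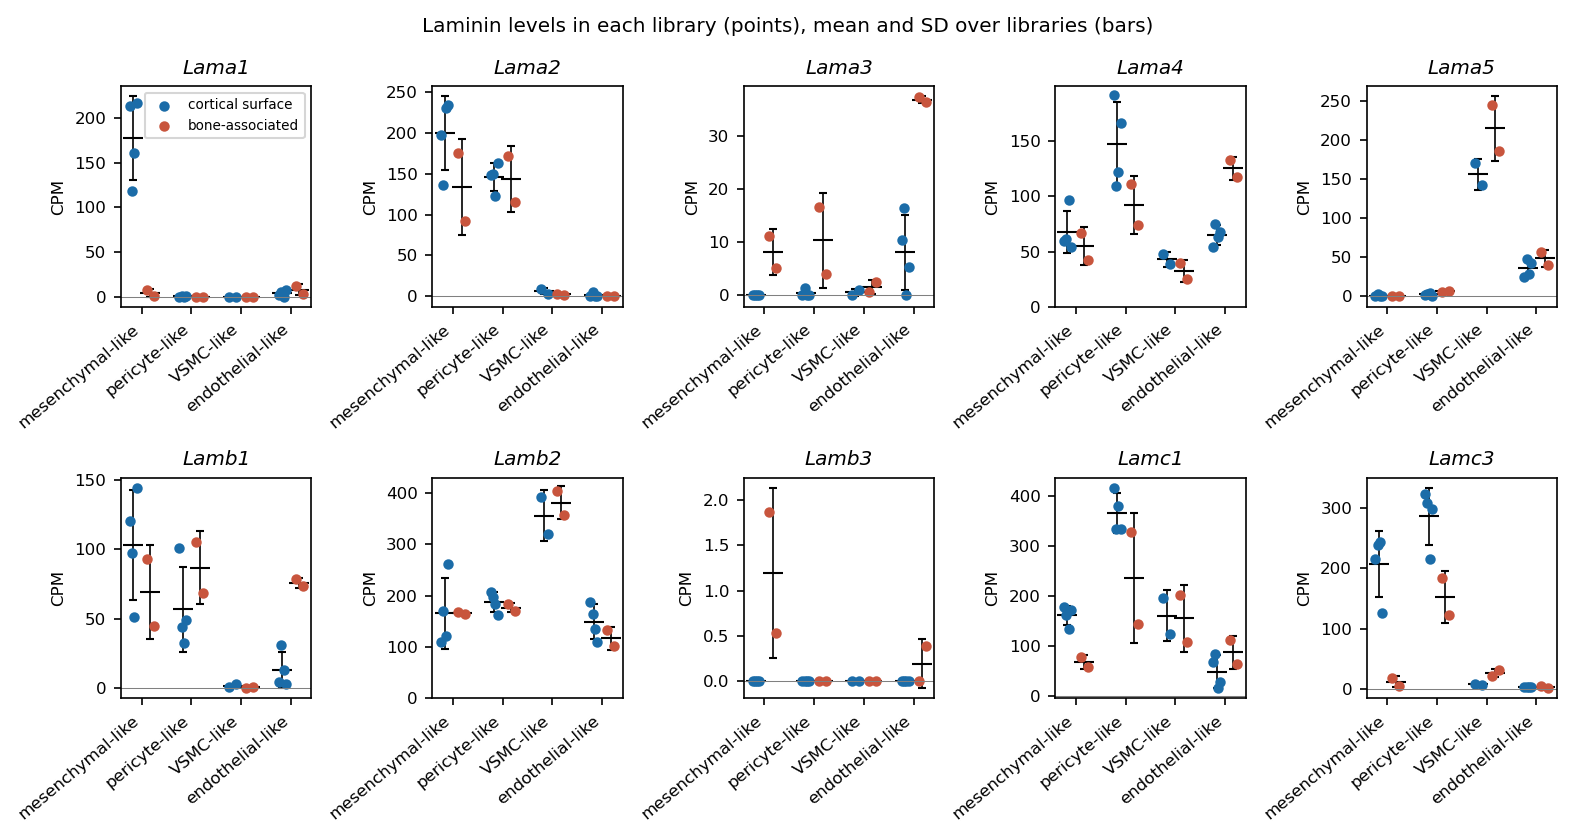
Level of each laminin chain gene in every library, in CPM of the class, for the mesenchymal-like, endothelial-like, pericyte-like and VSMC-like classes of both preparations; each point is a library, and the black marks are the mean and SD over libraries. Lama1 and Lamc3 of the leptomeningeal mesenchymal-like cells lie above both bone-associated libraries, and Lamb1 and Lama3 of the cortical surface endothelial-like cells lie below both.

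Of the beta chains, Lamb2 (ENSMUSG00000052911, chr9:108479736-108490530, plus strand), the beta chain of muscle, vessel and kidney filter laminins, was the more even. It stood at 382 ± 32.9 and 356 ± 50.02 CPM in bone-associated and cortical surface VSMC-like cells, where 96.8% and 97.3% of cells had a UMI. Some small unnamed clusters were higher. The bone-associated one led by Barx1 and Prkg2 had 507 CPM (16 cells), and the cortical surface one led by Olfr558 and Thsd4 had 453 (21 cells). Pericyte-like cells had 177 and 188 CPM, mesenchymal-like cells 166 ± 1.84 (bone-associated) and 166 ± 69.0 (cortical surface), and endothelial-like cells 117 and 150 CPM, and Lamb2 was called in no pair of these 3 classes. Schwann-like cells were the lowest stromal class at 34.3 ± 14.0 CPM.

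Lamb1 (ENSMUSG00000002900, chr12:31265234-31329644, plus strand), the beta chain of the embryonic and early vascular laminins, ran opposite to Lamb2 at both ends. Among the named classes its mean was highest in Schwann-like cells (122 and 193 CPM), the stromal class with the lowest Lamb2. The lower of these values rested on 10 UMIs in 14 cells and lay below the highest leptomeningeal library. The Lamb2 level of Schwann-like cells rested on 13 UMIs. Lamb1 was 0.3 to 1.6 CPM in VSMC-like cells, the named class with the highest Lamb2. Leptomeningeal cells had 120, 97.0, 51.4 and 145 CPM, and dural cells 93.2 and 44.9, which overlap. Bone-associated endothelial-like cells had 78.5 and 73.2 CPM, and cortical surface endothelial-like cells had 4.15, 31.0, 12.6 and 2.67 CPM. No cortical surface library reached the lower bone-associated one, and a UMI was seen in 33.2% against 3.0% of the cells. The bone-associated endothelial level came from 2 of the 3 clusters, that led by Btnl9 (119 CPM) and that led by Selp and F8 (73.4), whereas the third, led by Slc38a5, had 8.68 CPM; on the cortical surface the Slc38a5-led cluster had 3.77 and the Mfsd2a-led cluster 33.4.

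Lamb3 (ENSMUSG00000026639, chr1:193207699-193343878, plus strand), the beta chain of epithelial anchoring laminin, was found in leukocyte classes. B-like cells had 33.6, 98.1, 36.6 and 46.0 CPM on the cortical surface and 45.3 and 36.9 in the bone-associated libraries. The values of cortical surface libraries 1 and 2 rested on 3 UMIs in 18 cells and 8 UMIs in 14 cells. T or NK-like cells had 34.1 ± 18.5 CPM on the cortical surface and 34.2 ± 4.98 in the bone-associated libraries. Bone-associated neutrophil-like cells had 34.3 and 41.3 CPM from 18 UMIs, against 0 and 5.93 CPM in those of the cortical surface. Among B-like cells 15.5% on the cortical surface (median 3821 UMIs per cell) and 19.1% in the bone-associated libraries had a UMI, whereas 0 of 699 border macrophage-like cells of the cortical surface did (median 8037 UMIs), which allows a share of cells with a UMI of up to 0.429% by the same floor. The clusters with the highest level were Ighd-led B-like cells, at 91.9 CPM (bone-associated) and 68.3 CPM (cortical surface). The annotation of Lamb3 overlaps that of 4930570N18Rik on the same strand, and how reads from the shared part were counted was not examined.

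**Figure D3:**
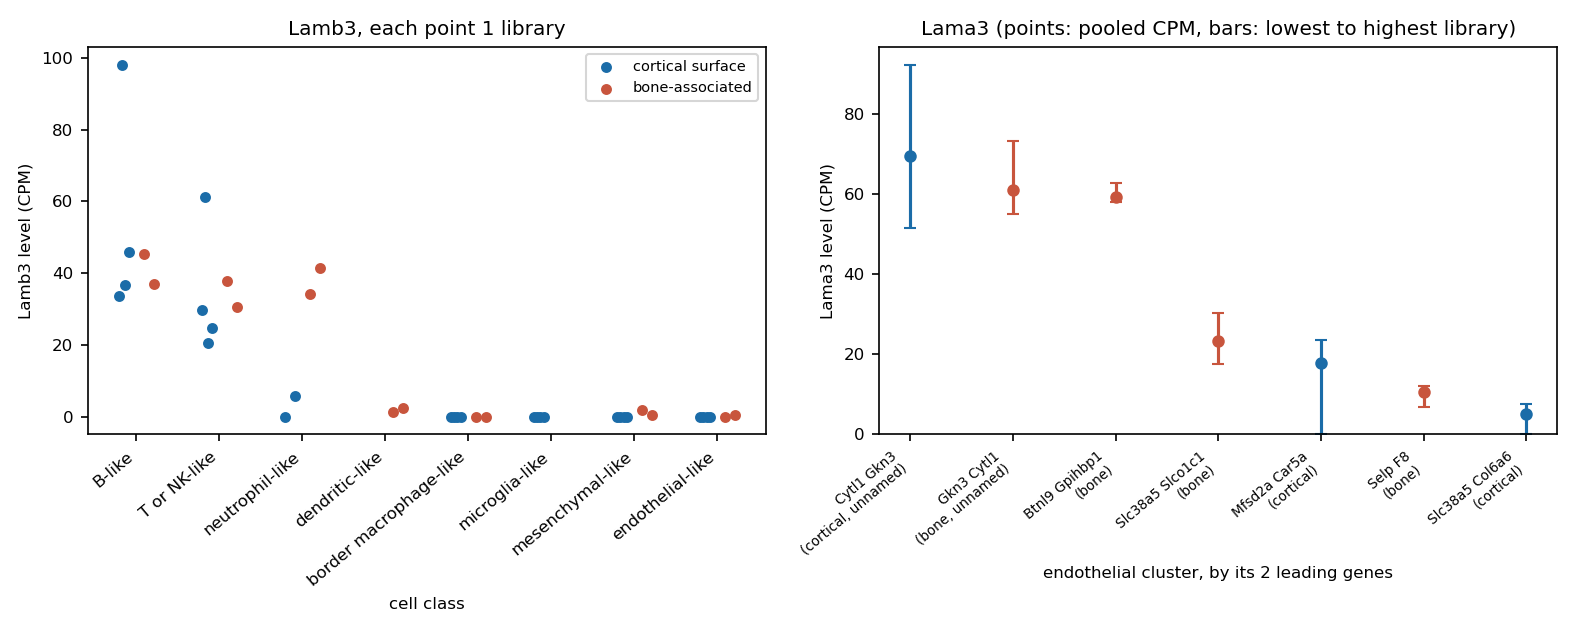
Left, Lamb3 level in CPM by cell class, with 1 point per library; right, Lama3 level in CPM in each endothelial-like cluster and in the Gkn3- and Cytl1-led clusters, with points for the pooled level and bars from the lowest to the highest library with at least 10 cells. Lamb3 lies in B-like, T or NK-like and bone-associated neutrophil-like cells, and Lama3 is highest, at 59.3 to 69.5 CPM, in the Gkn3- and Cytl1-led clusters of both preparations and the bone-associated Btnl9-led cluster.

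Of the gamma chains, Lamc1 (ENSMUSG00000026478, chr1:153218922-153332786, minus strand), which enters most known laminins, was highest in pericyte-like cells, at 416, 333, 379 and 333 CPM on the cortical surface (365 ± 40.1) and 327 and 145 CPM in the bone-associated libraries (236 ± 129), the higher of which lay just below the lowest cortical surface one. VSMC-like cells had 161 ± 51.0 and 156 ± 66.7 CPM and Schwann-like cells 154 ± 41.6. Leptomeningeal cells had 178, 161, 135 and 172 CPM and dural cells 78.3 and 58.8, with no overlap. Endothelial-like cells had 88.0 ± 32.9 CPM in the bone-associated libraries and 49.0 ± 32.3 on the cortical surface, where libraries 3 and 4, at 15.8 and 28.1, were lower than libraries 1 and 2, at 68.4 and 83.9.

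Lamc3 (ENSMUSG00000026840, chr2:31887291-31946539, plus strand), a gamma chain known from brain, retina and nerve laminins, was close to Lamc1 in the pericyte-like cells and far below it in endothelial-like and Schwann-like cells. It stood at 322, 308, 216 and 297 CPM in cortical surface pericyte-like cells (286 ± 47.6) and at 216, 238, 244 and 127 CPM in leptomeningeal cells (206 ± 54.4). In bone-associated pericyte-like cells it was 183 and 122 CPM, and in dural cells 18.6 and 5.85 (12.2 ± 9.04). A UMI was seen in 68.7% of leptomeningeal and 4.93% of dural cells, and in 29.0% and 1.42% when thinned. Of the 32 Lamc3 UMIs of the dural class, 31 were in the Apod- and Inmt-led cluster that also held its Lama1 UMIs. In VSMC-like cells Lamc3 was lower on the cortical surface (8.82 and 7.37 CPM) than in the bone-associated libraries (21.9 and 32.0). The 77 Schwann-like cells held 0 Lamc3 UMIs, which by the floor of 3 counts allows a share of cells with a UMI of up to 3.9%. An antisense gene, Gm13441, overlaps Lamc3 and is counted as a gene of its own.

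**Figure D4:**
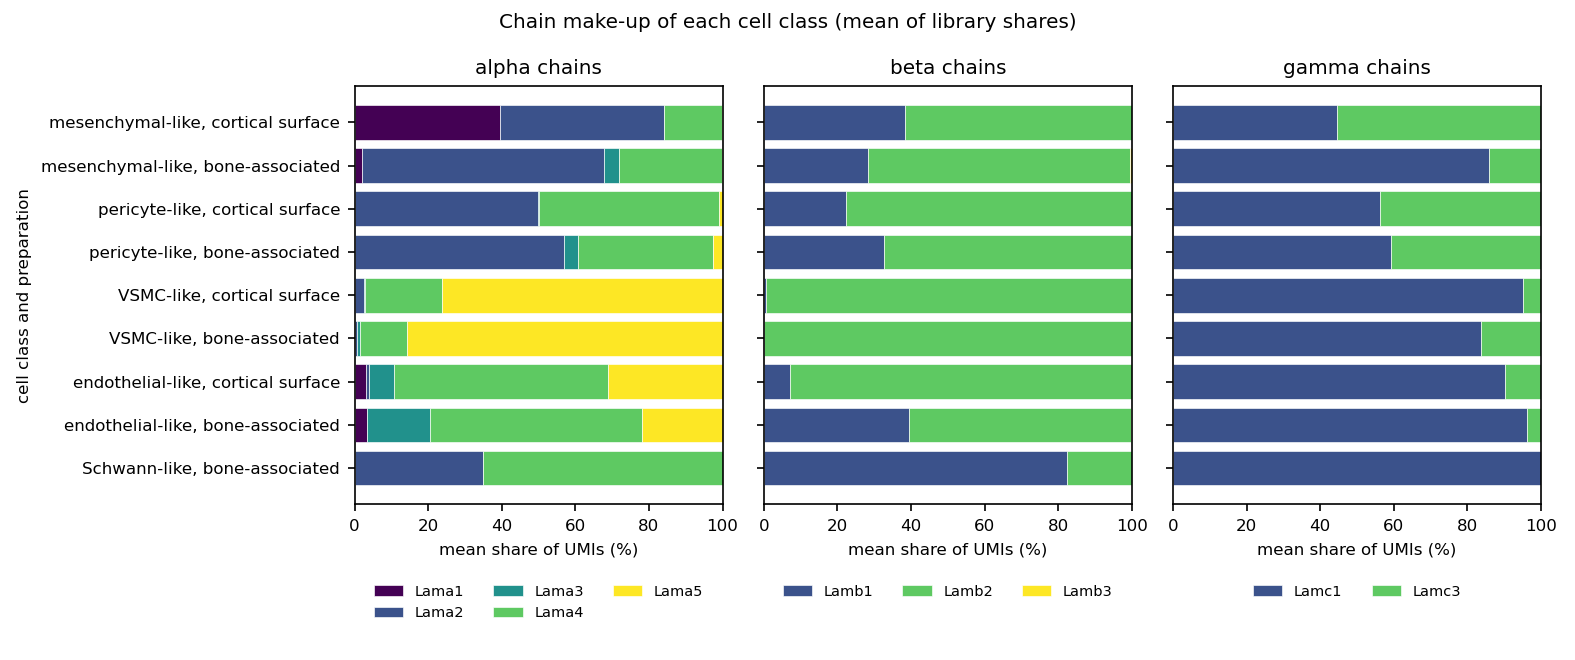
Share of each alpha, beta and gamma chain in the UMIs of its chain type over the 10 genes, in percent, as stacked bars per stromal class and preparation (mean over libraries). Alpha chains of leptomeningeal cells are split between Lama2 (44.6%) and Lama1 (39.6%), and those of VSMC-like cells are mostly Lama5.

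The share of each chain among the UMIs of its chain type, over the 10 genes, gives the make-up that a class could draw on. In leptomeningeal cells, alpha UMIs were 44.6% Lama2, 39.6% Lama1 and 15.5% Lama4, beta UMIs 61.6% Lamb2 and gamma UMIs 55.3% Lamc3. In dural cells they were 66.0% Lama2 and 28.0% Lama4 with 1.90% Lama1, 71.1% Lamb2 and 85.9% Lamc1. VSMC-like cells were the most uniform, with 76.2% (cortical surface) and 85.7% (bone-associated) Lama5 among alpha, at least 99.5% Lamb2 among beta and 95.1% and 83.7% Lamc1 among gamma UMIs. Endothelial-like cells had 58.3% and 57.5% Lama4 among alpha UMIs, and their beta UMIs were 92.8% Lamb2 on the cortical surface and 60.5% in the bone-associated libraries. Pericyte-like cells divided alpha between Lama2 (49.6% and 57.0%) and Lama4 (49.1% and 36.6%), and gamma between Lamc1 (56.2% and 59.2%) and Lamc3. Schwann-like cells had 65.2% Lama4, 82.3% Lamb1 and 100% Lamc1, with only 77 cells to show Lamc3.

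Single cells with UMIs of all 3 chains of a known trimer were counted next, for a fixed list of trimers. The list held no set of Lama1 with Lamb2, so the only Lama1 set counted was that with Lamb1 and Lamc1. In leptomeningeal cells, the set Lama2, Lamb2 and Lamc1 was seen in 79 of 265 cells (29.8%). Also seen were Lama2, Lamb1 and Lamc3 (27.9%), Lama2, Lamb1 and Lamc1 (26.0%), and Lama1, Lamb1 and Lamc1 (25.7%). These sets share cells and chains, the cells were pooled over libraries, and the shares were not tested against each other. In dural cells, which were deeper, the Lama2, Lamb2 and Lamc1 set was seen in 26.8% and the Lama4, Lamb2 and Lamc1 set in 19.4%, while the set with Lama2, Lamb1 and Lamc3 was seen in 3.17% and that with Lama1, Lamb1 and Lamc1 in 1.06%. VSMC-like cells had Lama5, Lamb2 and Lamc1 together in 69.2% (cortical surface) and 67.7% (bone-associated) of cells, and Lama4, Lamb2 and Lamc1 in 31.5% and 23.4%. In bone-associated endothelial-like cells, Lama4 was found with Lamb2 and Lamc1 in 17.9% and with Lamb1 and Lamc1 in 13.5%, and in those of the cortical surface in 5.57% and 1.499%. Lama5 with Lamb2 and Lamc1 was found in 9.51% and 6.42% of the bone-associated and cortical surface endothelial-like cells. Cortical surface pericyte-like cells had Lama2, Lamb2 and Lamc1 in 22.5%, and Lama4 and Lamb2 with Lamc1 in 20.5% and with Lamc3 in 18.04%. When every cell was thinned to 1500 UMIs no share was above 3.93%. The shares depend on depth, were not corrected for free RNA and say nothing of assembled protein.

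The classes were then compared within each preparation, with edgeR's quasi-likelihood test on UMI sums per library and Benjamini-Hochberg adjustment over all genes tested; genes with an adjusted p under 0.05 whose log2 fold change reached 1.3 in either direction were called. Of 8 laminin genes tested on the cortical surface, 6 were called between mesenchymal-like and endothelial-like cells (26.3% of all genes were), 1 between mesenchymal-like and pericyte-like (19.2%), 6 between mesenchymal-like and VSMC-like (26.6%), 6 between endothelial-like and pericyte-like (24.5%), 5 between endothelial-like and VSMC-like (28.9%) and 5 where pericyte-like were set against VSMC-like cells (16.8%). In the bone-associated libraries the same pairs gave 4 (27.1%), 3 (17.3%), 7 (28.1%), 5 (21.6%), 7 (28.8%) and 5 (16.6%) called laminin genes. These pairs share libraries and classes, and so are not independent. Genes were tested when over 10% of the cells of any of the 4 classes had a UMI. On the cortical surface Lama1 passed through leptomeningeal cells alone (61.1% of cells, at most 3.0% in the other classes). A count over the genes tested thus draws on genes that had to differ in some pairs.

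Lama5 was called higher, and Lamb1 lower, in VSMC-like than in each of the other 3 classes of both preparations. On the cortical surface Lama5 was 2.24 (SE 0.24) log2 units lower in endothelial-like than in VSMC-like cells, and in the bone-associated libraries 2.49 (SE 0.17) lower, with adjusted p of 2.4e-10 and 6.0e-14. Lamb2 was 1.45 (SE 0.18) and 2.05 (SE 0.15) lower in the same pairs. In the other direction, Lama2 was 4.85 (SE 0.32) and Lamb1 5.69 (SE 0.51) log2 units higher in leptomeningeal than in VSMC-like cells. Lama1 was at least 173-fold higher in leptomeningeal than in cortical surface VSMC-like cells, which held no UMI, and 162-fold higher than in pericyte-like cells with 2 UMIs (counting interval 44.4 to 1340).

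Pericyte-like cells were high in both gamma chains. On the cortical surface, Lamc1 was 2.62 (SE 0.20) and Lamc3 6.08 (SE 0.25) log2 units lower in endothelial-like than in pericyte-like cells. Lamc3 was 4.90 (SE 0.25) higher in pericyte-like than in VSMC-like cells, but differed between leptomeningeal and pericyte-like cells by -0.30 (SE 0.14), which did not pass. In the bone-associated libraries the Lamc3 difference between mesenchymal-like and pericyte-like cells was -4.12 (SE 0.36). Lama3 was 2.5 (SE 0.40) log2 units lower there in mesenchymal-like than in endothelial-like cells. Lama3 passed the filter on detection through endothelial-like cells alone (22.3% of cells, at most 7.75% in the other classes compared). Its difference is thus partly set by the filter.

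The preparations were compared within each class. In mesenchymal-like cells, 2 of 7 laminin genes tested were called, where 15% of the 9540 genes tested were. Lama1 was 6.12 log2 units higher on the cortical surface (SE 0.53, adjusted p = 9.0e-10) and Lamc3 4.56 higher (SE 0.44, adjusted p = 6.7e-09). Lamc1 differed by 1.29 (SE 0.29, adjusted p = 1.4e-03), just under the fold limit, and was called under 8 of the alternatives at 1.31 to 1.43. The others did not pass: Lamb1 0.68 (SE 0.34), Lama2 0.59 (SE 0.31), Lama4 0.33 (SE 0.33) and Lamb2 -0.06 (SE 0.30). Lama1 and Lamc3 passed the filter on detection through the leptomeningeal cells alone, so a count over the genes tested draws on genes that had to differ. With cortical surface libraries 1 and 2 alone, Lama1 was 6.08, Lamc3 4.70 and Lamc1 1.35 log2 units higher, and these 3 genes were called. Beside these, VSMC markers summed to 72.3 to 273 CPM in leptomeningeal and 679 to 760 CPM in dural cells, endothelial markers to 163 to 193 and 61.7 to 121 CPM, and pericyte markers to 96.3 to 154 and 76.1 to 87.6 CPM; their part in the result was not tested.

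In endothelial-like cells, 2 of 6 laminin genes tested were called, where 7.44% of the 7716 genes tested were, and both were lower on the cortical surface. Lamb1 differed by -2.24 (SE 0.41, adjusted p = 8.8e-04) and Lama3 by -1.82 (SE 0.39, adjusted p = 3.0e-03). Lama4, at -0.90 (SE 0.21, adjusted p = 7.0e-03), stayed under the fold limit, and Lamc1 (-0.69), Lama5 (-0.29) and Lamb2 (0.36) did not pass. Lamb1 and Lama3 passed the filter on detection through the bone-associated cells alone. Under DESeq2 Lamb1 was not called (-2.56, adjusted p = 0.092). With libraries 1 and 2 alone Lamb1 was -1.83 (adjusted p = 3.2e-03) and Lama3 -1.40 (adjusted p = 0.011). Without bone-associated library 2 Lama3 missed the threshold (-1.78, adjusted p = 0.053), and with the Gkn3- and Cytl1-led clusters counted as endothelial-like it was -1.15 (adjusted p = 0.014) and no longer called. The classes were made of different clusters, led by Slc38a5 and by Mfsd2a on the cortical surface and by Btnl9, Slc38a5 and Selp in the bone-associated libraries. Mesenchymal markers summed to 73.6 to 76.2 CPM in the bone-associated and 6.32 to 37.8 in the cortical surface endothelial-like cells, and erythroid markers reached 77714 CPM on the cortical surface against at most 52.3; their part was not tested.

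In pericyte-like cells, 0 of 6 laminin genes tested were called by edgeR, where 7.16% of the 7236 genes tested were, and 0 by DESeq2, while 3 had an unadjusted p under 0.05. Lamc3 differed by 0.84 (SE 0.24, adjusted p = 0.028), Lamc1 by 0.60 (SE 0.27) and Lama4 by 0.63 (SE 0.28), all higher on the cortical surface, while Lamb1 (-0.66, SE 0.35), Lama2 (-0.02) and Lamb2 (-0.06) did not pass either threshold. The bone-associated Lamc3 level came mostly from the cluster led by Ccl19 and Colec11, at 274 CPM, against 70.1 in that led by Ccl11 and Fst. All 7 cortical surface clusters lay at 238 to 352 CPM. Without the Colec11- or Nnmt-led clusters Lamc3 was called, at 1.75 (adjusted p = 8.3e-04). Mesenchymal markers summed to 2635 to 3344 CPM in the bone-associated and 986 to 1253 CPM in the cortical surface pericyte-like cells.

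In VSMC-like cells 1 of 5 laminin genes tested was called, where 6.05% of the 8313 genes tested were, with libraries 1 and 2 as the cortical surface samples. Lamc3, which passed the filter through the bone-associated cells alone, was lower on the cortical surface by -1.86 (SE 0.38, adjusted p = 2.1e-03), and with clustering in each library by itself it was -0.90 (adjusted p = 0.33). Pericyte markers, of a class rich in Lamc3, summed to 569 to 593 CPM in the bone-associated VSMC-like cells (5 of 5 detected) and to 368 to 370 in those of the cortical surface (4 of 5, with Abcc9 at 0); their part was not tested. Lama5 (-0.58, SE 0.23, adjusted p = 0.15), Lamb2 (-0.22), Lama4 (0.27) and Lamc1 (-0.08) did not pass.

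**Figure D5:**
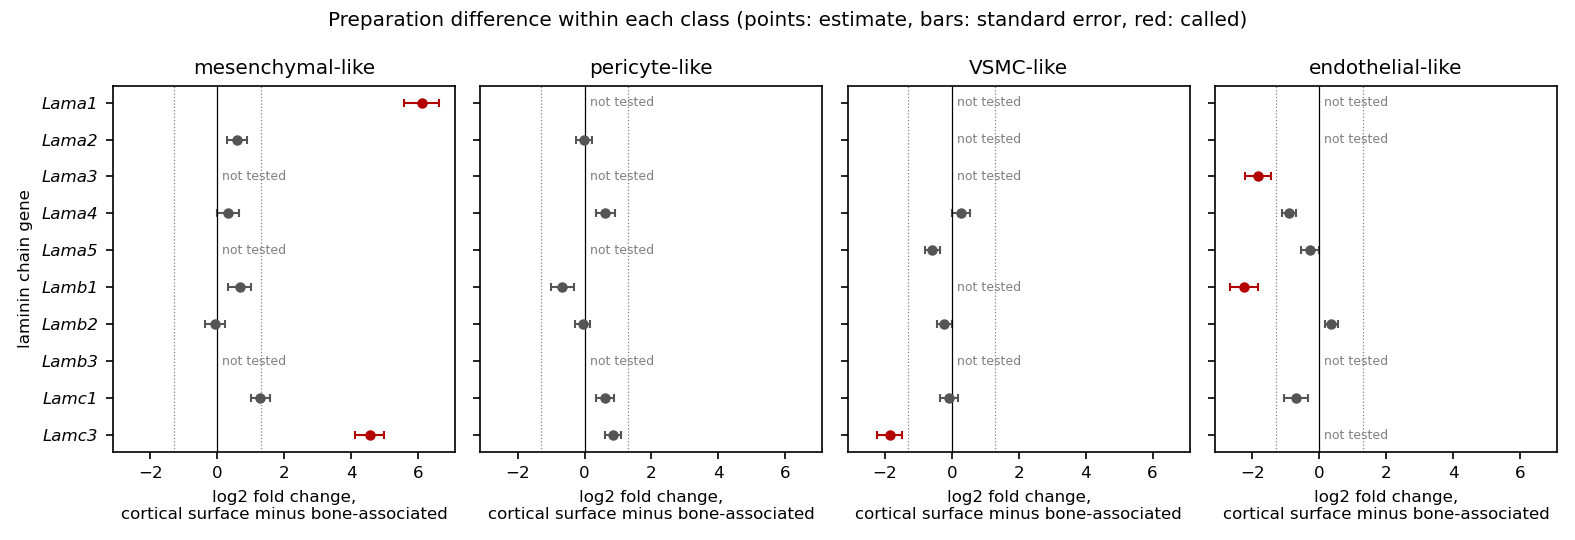
Log2 fold change of each tested laminin gene, cortical surface minus bone-associated, in each class, with bars of 1 standard error from edgeR, called genes in red and dotted lines at the fold limit of 1.3. Lama1 and Lamc3 lie far to the cortical surface side in mesenchymal-like cells, and Lamb1 and Lama3 to the bone-associated side in endothelial-like cells.

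Whether the preparation difference itself differed between classes was tested with an interaction term for 9 laminin genes in each pair of classes. Of these, 4 were called between mesenchymal-like and endothelial-like cells (10.0% of all genes), 2 between mesenchymal-like and pericyte-like (7.98%), 2 between mesenchymal-like and VSMC-like (8.80%), 3 between endothelial-like and pericyte-like (5.29%), 1 between endothelial-like and VSMC-like (5.39%) and 1 where pericyte-like were set against VSMC-like cells (3.09%). The preparation difference of Lamc3 was 3.81 (SE 0.38) log2 units larger in mesenchymal-like than in pericyte-like cells, that of Lama1 6.13 (SE 0.71) larger than in endothelial-like cells, and that of Lamb1 2.95 (SE 0.44) larger. For Lamb1 the 2 differences were 0.68 in mesenchymal-like cells, which did not pass by itself, and -2.24 in endothelial-like cells. These tests share libraries with those above. Members could pass their filter through 1 class of 1 preparation alone, as Lama1 did through leptomeningeal cells, so these counts are partly set by the filter.

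The partners of laminin in the basement membrane were examined by a list of 17 genes, which, like the list of receptors, was drawn up with earlier results of these data known. In mesenchymal-like cells, 14 were tested, of which 3 were higher and 2 lower on the cortical surface (median -0.50, with 15% of all genes called); list members could also pass the filter through 1 group alone. Col4a6, an alpha chain of the type IV collagen network, was 3.19 CPM in dural and 99.3 CPM in leptomeningeal cells (5.05 log2 units higher), and Col4a5, its partner chain, was higher by 3.16, while Ntn4, a netrin that binds laminin short arms, was lower by -3.47. In endothelial-like cells, 12 were tested, 1 was higher and 5 were lower (median -1.21, with 7.44% of all genes called), among them Col15a1 (-4.02), Fbln2 (-3.61), Hspg2, the gene of perlecan (-2.29), and Nid1, which links laminin to collagen (-2.06). In pericyte-like cells, 13 were tested and 4 were lower, Col4a5 (-3.31), Col4a4 (-2.65), Col4a3 (-2.04) and Hspg2 (-1.73), where 7.16% of all genes were called. In VSMC-like cells 12 were tested and Ntn4 was higher (1.83, 1114 against 287 CPM), where 6.05% of all genes were called. Several named genes passed the filter through their higher group alone. In mesenchymal-like cells these were Col4a6 (12 UMIs in dural cells) and Ntn4 (19 in leptomeningeal cells). Cortical surface endothelial-like cells held only 35 Col15a1 and 43 Fbln2 UMIs. Pericyte-like cells there held only 12 Col4a5, 24 Col4a4 and 25 Col4a3 UMIs. The directions of these genes are thus partly set by the filter.

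Of 12 laminin receptor genes, 9 were tested in mesenchymal-like cells and 2 were called. The shares of all genes called in each class are those given with the partner list above. The receptor counts were not tested against them. Itga3, an integrin that binds laminins with the Lama3 and Lama5 chains, was higher in leptomeningeal cells (34.7 against 3.33 CPM, 3.32 log2 units). With 13 UMIs in dural cells, Itga3 passed the filter on detection through the leptomeningeal cells alone. Itga2 held 0 UMIs there against 45 in dural cells, at least 7.62-fold lower, and so passed the filter on detection through the dural cells alone. In endothelial-like cells, of 9 tested, Itgb4, the partner of Itga6 in the receptor for anchoring laminins, was lower on the cortical surface (3.07 against 50.5 CPM, -3.74). With 11 UMIs on the cortical surface, Itgb4 passed the filter through the bone-associated cells alone, as Lama3 did. The direction shared by these genes is thus partly set by the filter. No receptor was called in pericyte-like (8 tested) or VSMC-like cells (9 tested). The medians were 0.53 and 0.02 in mesenchymal-like and endothelial-like cells.

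The genes with the most similar pattern over 25 class means, by Pearson r of log2 CPM among 12497 genes, were noted for each member. These points share libraries and the r carries no p. Il13ra2 (r = 0.952), 2610300M13Rik and Hcar1 were nearest to Lama1, Adamts12 (0.962), Moxd1 and Col3a1 to Lama2, Irx3 (0.910), Irx5 and Gata6 to Lama3, Erbb2 (0.968), Adgra2 and Cdc42ep1 to Lama4, and Ntf3 (0.906), Pitpnm3 and Rasd1 to Lama5. For the beta chains they were Kank4 (0.918), Fign and Bmp4 for Lamb1, Tns2 (0.947), Sspn and Cavin1 for Lamb2, and Tbc1d10c (0.922), Acap1 and A430078G23Rik for Lamb3. For the gamma chains they were Dag1 (0.899), Nid1 and Mprip for Lamc1, and Nfatc4 (0.935), Tbx18 and Cd248 for Lamc3. Dag1, which encodes dystroglycan, a receptor of laminin alpha chains, Sspn and Nid1 are members of the 2 lists above.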

How the data were processed

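Cells of 4 cortical surface and 2 bone-associated libraries were measured by droplet 3′ RNA sequencing. The authors deposited, per library, counts of UMIs per gene and barcode, aligned to mm10 with Cell Ranger (version 3 per the submitters' processing notes and 6.1.2 per the file headers). Groups came from the labels, 0 columns were set aside, and members and gene lists were chosen with earlier results of these data known. Named were all 10 laminin genes, up to 4 called genes of each list per comparison of preparations, and the 3 most similar genes for likeness.

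Barcodes under 500 detected genes or above 10% mitochondrial UMIs were dropped. Doublets were simulated (2 per cell) and 124 cells that resembled them were removed. Laminin genes, both lists, hemoglobin and mitochondrial genes were left out of 2000 variable genes, 30 components, 15 neighbours and Leiden clustering at resolution 1.5. A class needed 3 leading markers (20% of cells, 2-fold). No correction was made for free RNA or between libraries.

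UMIs were summed per library and class with at least 10 cells and tested with edgeR's quasi-likelihood test (the library as a block between classes, none between preparations), TMM scaling and Benjamini-Hochberg adjustment, over genes seen in more than 10% of the cells of either group. For class pairs and the interaction the filter was more than 10% of the cells of any of the 4 classes. p-values measure the spread between library pools. The code was tested on simulated data. Depth per library was 8408685 to 56169736 UMIs, and 95% intervals are exact (Clopper-Pearson or Poisson). Fitted folds against a class at 0 depend on the prior count, so a floor of 3 counts over the class was used instead. Alternatives comprised DESeq2, no filter on low counts, the replicate block, thinning, clustering per library, other cell filters and leaving out each library. A sub-clustering of pial against arachnoid cells was not tested, since at most 1 of 8 sub-clusters could be named. Clustering was run in Python 3.11.15 (scikit-learn 1.9.0 for neighbours, leidenalg 0.10.2 on igraph 0.11.9), with arrays and tables held by numpy 2.4.6 and pandas 2.3.3, exact intervals from scipy 1.17.1 and plots from matplotlib 3.10.9. Tests were run with edgeR 4.0.16, which uses limma 3.58.1, under R 4.3.3, and DESeq2 1.42.0 served as an alternative. Items withheld from this text are not reported here.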

Additional observations from a re-analysis of the deposited data

Results flagged for a closer look

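In the leptomeningeal mesenchymal-like cells, Lama4 in cortical surface library 3 was 96.3 CPM from 15 UMIs and lay far from the other libraries, the nearest being 61.1 CPM. Of 20 groups examined in this way 1 was marked, and chance marks about 1 in 20.

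The preparation difference (cortical surface minus bone-associated) differed between classes by a tested interaction term in 13 cases. Between mesenchymal-like and endothelial-like cells, it differed for Lamc1 by 1.81, for Lamc3 by 4.43, for Lamb1 by 2.95 and for Lama1 by 6.13 log2 units. Between mesenchymal-like and pericyte-like cells it differed for Lamc3 by 3.81 and for Lamb1 by 1.38, and between mesenchymal-like and VSMC-like cells for Lamc1 by 1.31 and for Lamc3 by 6.58. Between endothelial-like and pericyte-like cells it differed for Lamc1 by -1.304, for Lama4 by -1.51 and for Lamb1 by -1.58. Between endothelial-like and VSMC-like cells it differed for Lama4 by -1.32, and between pericyte-like and VSMC-like cells for Lamc3 by 2.77.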

How the results depend on the processing

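No result changed direction under the alternatives run. Endothelial-like cells had 1 laminin gene called, in place of 2, under DESeq2, with cells thinned to 1500 UMIs and with the Gkn3- and Cytl1-led clusters included; leaving out a library gave 1 to 2, the 1 being without bone-associated library 2. Under DESeq2 the lost call was Lamb1 (-2.56, adjusted p = 0.092). VSMC-like cells had 0 in place of 1 with thinning and with clustering in each library (1 to 1 with a library left out), and pericyte-like cells 1 in place of 0 without the Colec11- or Nnmt-led clusters (0 to 0). Mesenchymal-like cells had 2 to 3 calls with a library left out, and the cortical surface class pairs 27 to 29 against 29. The 31 calls of the bone-associated class pairs became 20 with thinning, and a library could not be left out of them. The 13 interaction calls became 7 with thinning, 7 with clustering in each library, and 8 to 13 with a library left out, the 8 being without cortical surface library 3 and without bone-associated library 2. Thinning tests shallower counts; the cause of the other changes was not tested. Counts over all genes that moved by more than 1.5 times were 590 of 1435 (mesenchymal-like), 303 of 574 (endothelial-like), 234 of 518 (pericyte-like), 157 of 503 (VSMC-like), 6740 of 13521 and 6347 of 14364 (cortical surface and bone-associated pairs) and 1481 of 4330 (interaction) with thinning, 932 without a filter on low counts in endothelial-like cells, and 328 and 2435 without bone-associated library 2 in pericyte-like cells and in the interaction. Libraries of the preparations share the numbers 1 and 2 in the labels. Their deviations correlated at 0.040 to 0.18 (VSMC-like 0.37) over 2 pairs, which are too few to tell whether more than the number is shared. With this replicate block 3 genes were called in mesenchymal-like cells (Lamc1 at 1.35 joining), 2 in endothelial-like, 0 in pericyte-like and 1 in VSMC-like cells; the class pairs, which use the library as a block, gave 29 calls on the cortical surface and 29 in the bone-associated libraries with no replicate block. Cortical surface libraries 1 and 2 alone gave 3, 2 and 0 calls in mesenchymal-like, endothelial-like and pericyte-like cells, 26 in the cortical surface pairs and 10 in the interaction. The cluster alternatives and the use of libraries 1 and 2 alone were chosen after seeing the data. Depth limits Lama3, Lamb3 and Lama1 outside their highest classes, where single libraries hold few UMIs.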
